A study of Mus musculus with 4 samples.

Results

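The genes described here are 8 secreted inhibitors of Wnt signalling, Sfrp1, Sfrp2, Sfrp4, Sfrp5, Frzb, Dkk2, Dkk3 and Wif1, together with the Wnt target gene Axin2. They were taken as every probe whose gene name in the array files equals one of these names, which gave 13 probes for 9 genes, of 56605 probes and 37074 gene names on the array. The genes were chosen with the CY and NS values of these arrays already known, and Sfrp5 and Dkk3 are among the genes the study itself names. Their values are therefore a description, and nothing below is a test of whether these genes respond to CY.

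RNA was measured in the hearts of female C57BL/6J mice, 6 weeks old by the labels, that were injected intraperitoneally once a day for 2 days and killed 3 h after the last dose. The CY array holds a heart sample after cyclophosphamide at 400 mg/kg, an alkylating drug that the liver turns into active metabolites and acrolein. The acrolein array holds one after acrolein at 5 mg/kg, the reactive aldehyde formed from the drug. The NAC + CY array holds one after N-acetylcysteine, an antioxidant that binds acrolein, at 200 mg/kg given before CY at 400 mg/kg. The NS array holds the normal saline control. Each condition was read on 1 single-colour Agilent array, so differences between conditions could not be set against the spread of replicates, and no p-values are given. The sources used here do not say how many mice contributed to each RNA. The tissue was a section of the heart, and the sources do not say which chambers or layers it held.

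Wnt proteins are secreted signals that bind Frizzled receptors and the co-receptors Lrp5 and Lrp6 at the cell surface. In the canonical branch, this binding keeps beta-catenin from being destroyed, and beta-catenin then enters the nucleus and works with TCF/LEF factors to switch on target genes. The inhibitors act outside the cell. The secreted frizzled-related proteins (Sfrp1, Sfrp2, Sfrp4, Sfrp5 and Frzb, which is also called Sfrp3) carry a cysteine-rich domain like that of Frizzled and can bind Wnt proteins, as does Wif1 through a domain of its own. Dkk proteins differ from these in that the typical ones, such as Dkk2, bind Lrp5 and Lrp6, whereas Dkk3 is a divergent relative without a settled place in the pathway. Axin2 is a scaffold of the complex that destroys beta-catenin and a widely used target gene of the pathway. In the heart these genes are studied in development, in the epicardium and fibroblasts, and in repair after injury.

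The stretches of transcript that the leading probes read are printed because the results turn on these 5 probes, 3 of which cover the same gene. The first 30 bases of each probe are given, 5′ to 3′ in the sense of the mRNA, with positions on mm9 as the array files list them.
Sfrp5, minus strand, chr19:42272509-42272568: attattgctactgctgtggggccgctgatt
Dkk3, minus strand, chr7:119259556-119259615: gcctgtaaatcgcatctgaagataccacag
Dkk3, minus strand, chr7:119260828-119260887: gaatgaaatttgcaaagtcgcttagcaaca
Dkk3, minus strand, chr7:119265170-119294157: aacacagtccatgtgcaccaggaagttcac
Wif1, plus strand, chr10:120537079-120537138: ggctgatatctactcttccttttaggtttt
The probes are 60 bases long. The last Dkk3 probe spans 28988 bases of the genome, so it lies across a splice junction, whereas the other 2 Dkk3 probes are continuous in the genome and do not overlap each other.

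Signals are fluorescence intensities in arbitrary units after quantile normalisation, and a value of a probe is comparable between arrays but not with that of another probe. The error after each log2 ratio is that of the scanner software's error model for the spots and covers measurement error only, not differences between mice. A gene was called higher in an array when its ratio was at least 1.5 and its Z-score at least 2, and lower when the ratio was at most 0.66 and Z at most -2. Z sets the log2 ratio against the spread of the 200 probes nearest in mean signal. Between 47.1% and 50.02% of probes were well above background, with the smallest share on the NS array. The lowest signal that counted as well above background was 16.5 on the NS array, against 12.5 to 12.8 on the others. Dim genes were therefore harder to detect on the NS array. Repeated spots of a probe had a median SD of 0.046 to 0.050 on the log2 scale. All 3 comparisons with NS share the NS array, and the CY array is the numerator of the first and the denominator of NAC + CY against CY, so these comparisons are not independent of each other.

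In the CY heart, 3 of the 8 testable genes, Sfrp5, Dkk3 and Wif1, were called higher than in the NS heart and none was called lower. Over all 19721 genes tested, 3.38% were called higher and 2.82% lower. Since the genes were chosen from this contrast, the difference between 3 of 8 and this background is a result of that choice. The median log2 ratio of the 8 genes was 1.62, against -0.02 over all genes tested, and it was 1.43 over the 7 genes well above background on both arrays. Dkk2 did not carry a detection flag on any array and was not testable. In the NAC + CY heart, the same 3 genes were called lower than in the CY heart, a direction that the choice of the genes also favours.

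**Figure D1:**
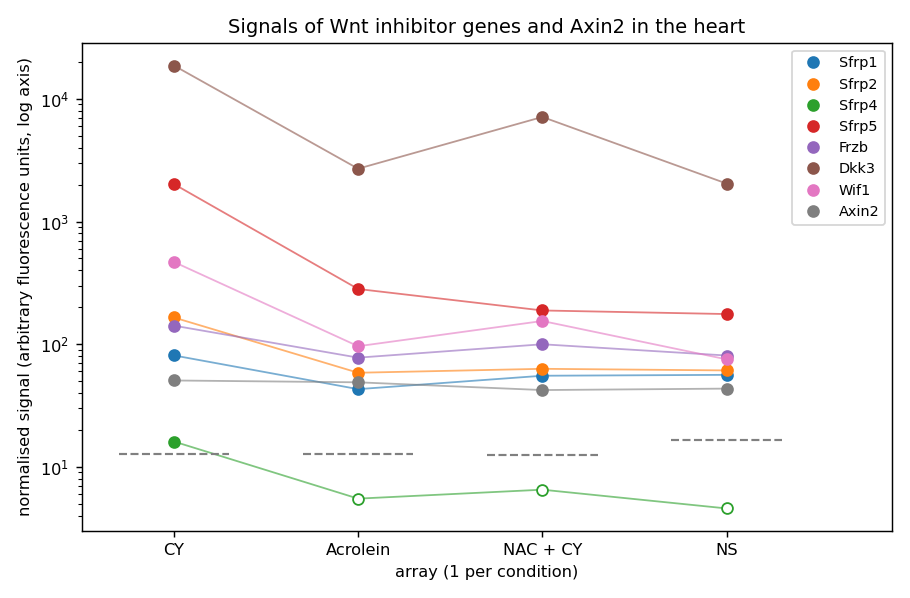
Normalised signal (arbitrary units, log axis) of 1 probe per gene on the CY, acrolein, NAC + CY and NS arrays. Filled points are well above background, open points are not, dashed lines mark the lowest signal well above background on each array, and the lines joining points only connect values of the same gene. All 8 genes shown had their highest signal on the CY array, which for Sfrp4 is the only array with a detection flag. The vertical order of the genes depends on the probes and has no meaning.

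Sfrp5, a secreted frizzled-related protein, had signals of 2020 on the CY array, 281.7 on the acrolein array and 188.3 on the NAC + CY array, against 176.0 on the NS array. The CY array stood far above the other three, and the NAC + CY and NS arrays were nearly equal. The CY heart was 11.5-fold higher than the NS heart (log2 ratio 3.52 ± 0.21, Z 7.45). By Z this was place 5 from the top of 19721 genes, and by log2 ratio place 43. The acrolein heart was called higher than the NS heart by 1.60-fold (0.68 ± 0.21, Z 2.64), a call that was lost in 4 of 14 alternatives. The NAC + CY heart was not called different from the NS heart (0.10 ± 0.21, Z 0.16). Compared with the CY heart, the NAC + CY heart was 10.73-fold lower (log2 ratio -3.42 ± 0.21, Z -8.54), place 5 from the bottom of 20083 genes by Z.

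Dkk3, the divergent member of the Dickkopf family, was read by 3 probes. The probe with the highest signal gave 18695 on the CY array, 2696 on the acrolein array and 7120 on the NAC + CY array, against 2039 on the NS array. The CY array was highest and, unlike for Sfrp5, the NAC + CY array lay clearly between the CY and NS arrays. The CY heart was 9.17-fold higher than the NS heart (3.20 ± 0.20, Z 6.86), place 10 from the top by Z. The NAC + CY heart was called higher than the NS heart by 3.49-fold (1.80 ± 0.20, Z 4.52) and lower than the CY heart by 2.63-fold (log2 ratio -1.39 ± 0.20, Z -5.59). The acrolein heart had a ratio of 1.32 to the NS heart (0.40 ± 0.20), which is below the ratio of 1.5 that a call needs, although its Z was 3.06.

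The other 2 Dkk3 probes gave the same order of the CY, NAC + CY and NS arrays. The second continuous probe had signals of 2692 on the CY array, 317.0 on the acrolein array and 879.1 on the NAC + CY array, against 265.3 on the NS array. Its log2 ratios to NS were 3.34 in the CY heart, 0.26 in the acrolein heart and 1.73 in the NAC + CY heart, and it was called wherever the first probe was. The probe across the splice junction had signals of 134.1 on the CY array, 16.8 on the acrolein array and 37.5 on the NAC + CY array, against 15.2 on the NS array, where it was not well above background. Its ratio is therefore a bound, computed with the dimmest NS signal that still counted as well above background in place of the probe's own. The CY heart was at least 8.14-fold higher than the NS heart by this probe and was called. The NAC + CY heart was at least 2.27-fold higher than the NS heart but was not called (Z 1.42), and it was called lower than the CY heart (log2 ratio -1.84 ± 0.24).

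Wif1, which binds Wnt proteins through its WIF domain, had signals of 468.1 on the CY array, 96.2 on the acrolein array and 154.5 on the NAC + CY array, against 75.2 on the NS array. The order of the arrays was that of Dkk3. The CY heart was 6.23-fold higher than the NS heart (2.64 ± 0.21, Z 4.53), place 83 from the top of 19721 genes by Z. The NAC + CY heart was 3.03-fold lower than the CY heart and was called (log2 ratio -1.60 ± 0.21, Z -2.25). That last call was lost with a Z window of 100 probes (Z -1.92). The NAC + CY heart had 2.06 times the NS signal without a call (1.04 ± 0.22, Z 1.31), and the acrolein heart had 1.28 times the NS signal (0.36 ± 0.22, Z 1.14).

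**Figure D2:**
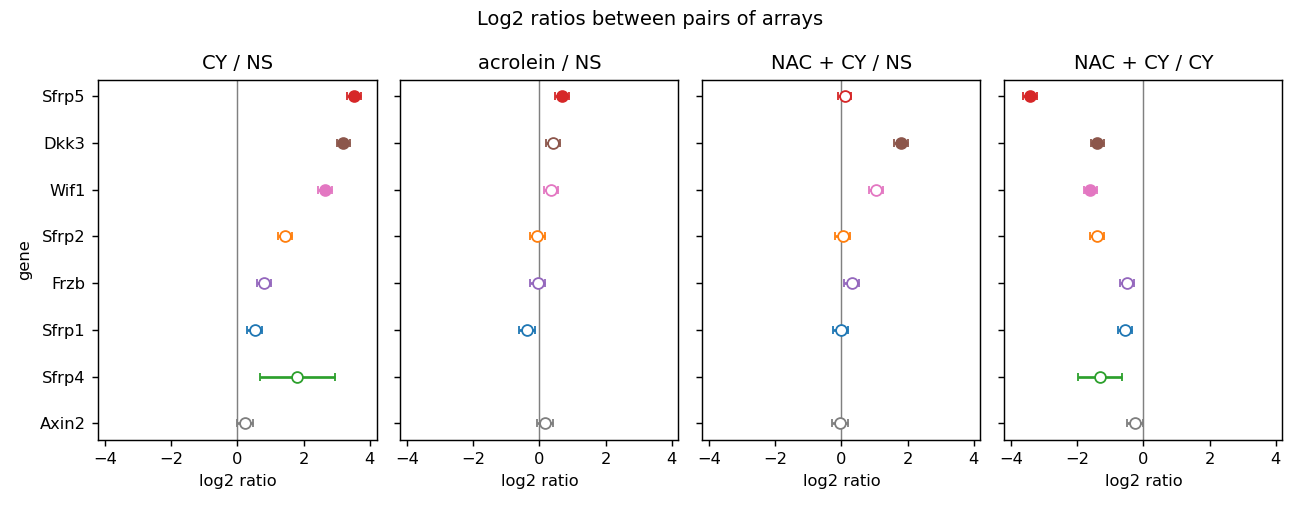
Log2 ratio of 1 probe per gene for each treated array relative to NS, and for NAC + CY relative to CY, with the error model's error as bars. Filled points passed the call and open points did not. Sfrp4 was well above background on the CY array only, so its points are uncertain, and it is left out where the CY array is not involved.

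Sfrp2, a frizzled-related protein made by mesenchymal cells, was the gene nearest to the call without passing it. Its signals were 165.0 on the CY array, 58.5 on the acrolein array and 63.0 on the NAC + CY array, against 61.1 on the NS array. The CY array stood alone and the other three lay close together. The CY heart was 2.70-fold higher than the NS heart (1.43 ± 0.22), with a Z of 1.91 that missed the threshold of 2. The nearest gene that passed was Wif1, with a Z of 4.53. The Sfrp2 call depended on the processing, since it was made in 6 of the 15 settings tried. In the NAC + CY heart Sfrp2 was 2.62-fold below the CY heart, again without a call (log2 ratio -1.39 ± 0.21, Z -1.70), and it was called in 4 of 15 settings.

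Frzb and Sfrp1, both Wnt-binding frizzled-related proteins, were not called in any comparison. The brighter Frzb probe had signals of 141.6 on the CY array, 77.6 on the acrolein array and 99.8 on the NAC + CY array, against 80.8 on the NS array (log2 ratio of CY to NS 0.81 ± 0.21, Z 1.40). The second Frzb probe had signals of 116.7 on the CY array, 65.7 on the acrolein array and 82.8 on the NAC + CY array, against 59.0 on the NS array (0.98 ± 0.23, Z 1.53). Both Frzb probes put the CY array first and the NAC + CY array next. Sfrp1 had signals of 81.0 on the CY array, 43.0 on the acrolein array and 55.3 on the NAC + CY array, against 56.2 on the NS array. Its log2 ratios to NS were 0.53 ± 0.23 (CY), -0.39 ± 0.24 (acrolein) and -0.02 ± 0.23 (NAC + CY).

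Sfrp4 and Dkk2 were at the lower end of what the array can measure. Sfrp4 was well above background on the CY array only, at 16.1, and had signals of 5.50 on the acrolein array and 6.51 on the NAC + CY array, against 4.58 on the NS array. On the NS array no probe below 16.5 counted as well above background, which is more than the CY signal, so no fold is given for CY against NS. The NAC + CY heart was at least 1.29-fold lower than the CY heart and was not called (Z -0.84). The Dkk2 probe was at 7.11 on the CY array, 3.07 on the acrolein array and 3.06 on the NAC + CY array, against 3.09 on the NS array, and was not well above background on any of them. For Dkk2, and for Sfrp4 in CY against NS, a difference was not measurable here, which does not show that it was absent.

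Axin2, the target gene and feedback scaffold, had nearly equal signals on all 4 arrays. They were 50.6 on the CY array, 48.9 on the acrolein array and 42.3 on the NAC + CY array, against 43.4 on the NS array. Its log2 ratios to NS were 0.22 ± 0.25 (CY), 0.17 ± 0.25 (acrolein) and -0.04 ± 0.25 (NAC + CY), each no larger than its measurement error, and it was not called in any comparison or setting. A second Axin2 probe was not well above background on any array, with signals of 3.24 to 3.69.

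Across the genes, all 8 that carried a detection flag had their highest signal on the CY array. Sfrp4 carried its flag on the CY array only, so it entered this count through the array where it was highest. Over 20738 genes with a flag on any array, 26.8% had their highest signal there, and the choice of the genes used these signals. In acrolein against NS, Sfrp5 was the 1 gene of 7 called higher and none was called lower, against 1.08% higher and 1.29% lower of 19700 genes. Of all genes called in that comparison, 45.6% were higher, and 35.0% when each array was scaled to its median. The median log2 ratio of the 7 genes was 0.17, against 0.01 over all genes. Dkk3 was, in NAC + CY against NS, the 1 gene of 7 called higher and none was called lower, against 2.68% higher and 2.59% lower of 19808 genes. The median there was 0.10, against -0.01 over all genes. Relative to CY, none of 8 genes was called higher in the NAC + CY heart and 3 were called lower, against 1.54% higher and 2.82% lower of 20083 genes. The median was -1.35, against 0.02 over all genes, and it was -1.39 over the 7 genes well above background on both arrays. The genes were chosen with the CY signals known and CY is the denominator here, so lower ratios are favoured by that choice.

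**Figure D3:**
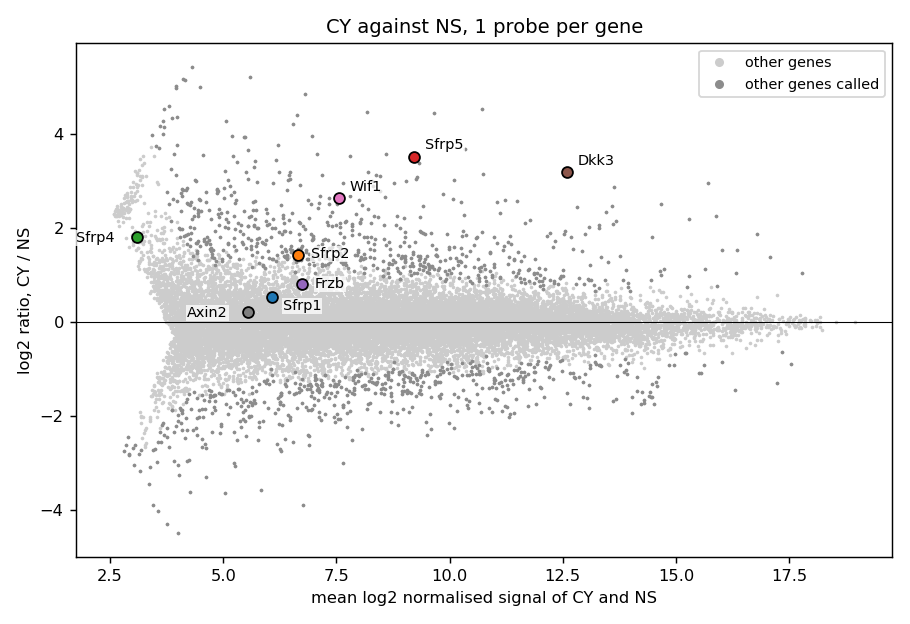
Log2 ratio of CY to NS against the mean log2 normalised signal of both arrays for 19721 genes, 1 probe each, with called genes in darker grey. Sfrp5, Dkk3 and Wif1 lie above the cloud at their signal, Sfrp2 at its upper edge, and Frzb, Sfrp1 and Axin2 within it. Sfrp4 lies at the dim end, where ratios scatter most.

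Other genes of the Wnt pathway were read from lists written from general knowledge of the pathway. In CY against NS, 10 of 19 Wnt ligands could be tested, and 2 were called higher and none lower. Wnt9b, a ligand of the canonical branch, had a signal of 256.7 on the CY array, against 55.4 on the NS array (log2 ratio 2.21). Wnt4 had 105.6 on the CY array, against 32.9 on the NS array (1.68). None of the 14 testable Frizzled, Lrp and related receptors was called. The median log2 ratio was 0.31 for the ligands and -0.19 for the receptors.

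R-spondins amplify Wnt signals through Lgr receptors, and of this group 1 of 5 testable genes was called higher and 1 lower. Rspo1 had 623.1 on the CY array, against 265.3 on the NS array (1.23), and the receptor Lgr6 had 207.1 on the CY array, against 513.6 on the NS array (log2 ratio -1.31). Of 11 other extracellular inhibitors and Dkk co-receptors that could be tested, 1 was called higher and 1 lower. The first was Igfbp4, a binding protein of insulin-like growth factors that also antagonises Wnt signals, with 498.8 on the CY array, against 225.5 on the NS array (1.14). The second was Trabd2b, a protease that inactivates Wnt proteins, with 3163 on the CY array, against 6171 on the NS array (log2 ratio -0.96).

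Inside the cell, 1 of 29 testable genes of the beta-catenin pathway was called, and it was lower in the CY heart. This was Ctnnbip1, which keeps beta-catenin from binding TCF factors (1077 on the CY array, against 1926 on the NS array, log2 ratio -0.84). Of 15 testable Wnt target genes other than Axin2, 3 were called higher and none lower. Myc had 99.6 on the CY array, against 29.2 on the NS array (1.77). Id2 had 916.7 on the CY array, against 283.3 on the NS array (1.69), and Ccn4, which the array names Wisp1, had 540.8 on the CY array, against 251.4 on the NS array (1.11). Myc and Id2 are also induced by pathways other than Wnt. The median log2 ratio was 0.13 for the beta-catenin pathway and 0.47 for the target genes. Among the target genes the ratios ran from -1.06 for Znrf3, which was not called, to 1.77 for Myc.

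In acrolein against NS, 6 genes of these lists were called and all 6 were lower in the acrolein heart. They were Wnt2 (log2 ratio -0.77), Wnt9b (-0.74), the co-receptor Ptk7 (-0.63), Rspo1 (-0.78), the cell-surface proteoglycan Gpc3 (-0.94) and the signal transducer Dvl3 (-0.76). Sfrp5 was higher in the same comparison. Wnt9b and Rspo1 were thus called higher in the CY heart and lower in the acrolein heart, both relative to the same NS array.

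The genes called lower in NAC + CY against NS were Wnt2 (log2 ratio -1.33), Lgr6 (-1.01), Dvl3 (-0.70) and Ctnnbip1 (-0.91). All of these passed narrowly, with Z from -2.005 for Wnt2 to -2.215 for Ctnnbip1, and Lgr6 was called in 9 of 15 settings. The called higher gene was Ccn4 (1.11). Relative to the CY heart, 3 of 10 Wnt ligands were called lower in the NAC + CY heart, namely Wnt2 (log2 ratio -2.08), Wnt9b (-2.03) and Wnt4 (-1.49). Fzd2 (-0.67), Rspo1 (-1.57), Gpc3 (-1.65), the Wnt receptor inhibitor Shisa3 (-1.25), Igfbp4 (-0.83) and Id2 (-1.38) were called lower too. No gene of the 6 lists was called higher in that comparison.

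**Figure D4:**
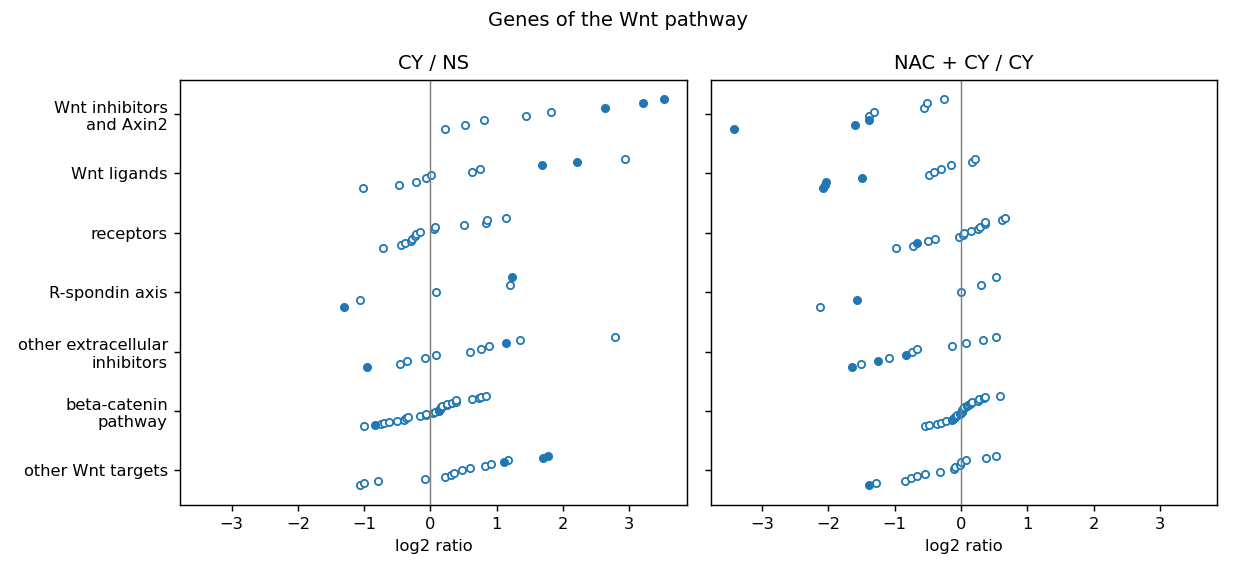
Log2 ratio of CY to NS and of NAC + CY to CY for each testable gene of the Wnt lists, sorted within a list, with called genes filled. In CY against NS the highest ratio is 3.52 among the inhibitors, 2.93 (Wnt7a) among the Wnt ligands and 2.78 (Sost) among the other extracellular inhibitors. Wnt7a and Sost were not called and were not well above background on the NS array. Their bounds are at least 1.42-fold and 1.23-fold higher in the CY heart. In NAC + CY against CY every called gene shown is below 0.

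Heart RNA comes from many cell types, and a higher signal can come from more cells of a type or from more RNA per cell, which cannot be told apart in these samples. Marker genes of several cell types differed between the arrays in the same comparisons as the inhibitors. Their part in the values of Sfrp5, Dkk3 and Wif1 was not tested. The heart muscle markers were bright on every array, with a summed signal of 1849840 on the CY array, against 2188910 on the NS array, and 3 of 12 were called lower.

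Atrial muscle markers were called higher in the CY heart for 8 of 10 genes and lower for none, with a median log2 ratio of 1.70. Their summed signal was 805407 on the CY array, 382677 on the acrolein array and 491204 on the NAC + CY array, against 306917 on the NS array. These sums rest mostly on the brightest genes, and single markers ordered the arrays differently. Hamp, the gene of hepcidin, had 3761 on the CY array, 53.0 on the acrolein array and 286.6 on the NAC + CY array, against 170.7 on the NS array, and it was called lower in the acrolein heart (log2 ratio -1.69). The calcium channel subunit Cacna2d2 had 881.0 on the CY array, 95.3 on the acrolein array and 81.6 on the NAC + CY array, against 109.6 on the NS array. Bmp10, a growth factor of the atria, was at least 6.29-fold higher in the CY heart and was not well above background on the other arrays.

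Mesothelial and epicardial markers were called higher in the CY heart for 11 of 16 genes and lower for none, with a median log2 ratio of 1.48. Their summed signal was 12669 on the CY array, 2062 on the acrolein array and 4211 on the NAC + CY array, against 3699 on the NS array. Dmkn had a log2 ratio of CY to NS of 4.47, Anxa8 of 3.39, and Upk1b, a uroplakin, of 2.30. In acrolein against NS, 12 of 15 of these markers were called lower and none higher, with a median log2 ratio of -0.99. Sfrp5 had a log2 ratio of 0.68 in that comparison, called higher in 11 of 15 settings. A relation between Sfrp5 and these markers was not tested. The NAC + CY heart was called lower than the CY heart for 14 of 16.

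Valve interstitium markers were called higher in the CY heart for 5 of 9 genes and lower for none, with a median log2 ratio of 1.38. Their summed signal was 7312 on the CY array, 3459 on the acrolein array and 3519 on the NAC + CY array, against 3158 on the NS array. Hapln1 and Cnmd were well above background on the CY array only, at least 1.87-fold and 1.09-fold higher than on the NS array, and were not called. Sox9 (log2 ratio -0.25) and Scx (0.08) were not called either. Prg4, which encodes lubricin, had a log2 ratio of CY to NS of 2.79.

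Fibroblast markers were called higher in CY against NS for 1 of 13 genes, with a median log2 ratio of 0.17. In the NAC + CY heart, 7 of 13 were called lower than in the CY heart, with a median of -0.81, and 4 of 13 lower than in the NS heart. Platelet markers were called higher in CY against NS for 7 of 8 genes, with a median of 3.36, and lower in NAC + CY against CY for 6 of 8, with a median of -3.47. Gp1ba and Itga2b were well above background on the CY array only and entered these counts through that array, where they were high. Both medians include ratios to signals that were not well above background. For Itga2b the CY heart was at least 3.15-fold above the NS heart, and the NAC + CY heart at least 4.15-fold below the CY heart. Fibroblast and platelet markers were thus called lower in the same comparison as Sfrp5, Dkk3 and Wif1. So were atrial markers for 7 of 10 genes (median -0.98), valve markers for 5 of 9 (-1.24) and mesothelial markers for 14 of 16. Neutrophil markers were called higher there for 4 of 7 genes and lower for 1, and hepatocyte markers higher for 6 of 10 and lower for 1.

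Pericyte and smooth muscle markers were called higher in CY against NS for 2 of 10 genes and lower for 3, with a summed signal of 21315 on the CY array, against 38716 on the NS array. Most of the difference between these sums came from Acta2 (7397 on the CY array, against 23033 on the NS array, log2 ratio -1.64). Abcc9 (log2 ratio -1.38) and Pdgfrb (-0.89) were called lower too. Cnn1, a smooth muscle calponin of this list (3.11), and Tagln (1.14) were called higher. Lymphocyte markers were called lower in CY against NS for 4 of 7 genes. Neutrophil markers were called higher in CY against NS for 2 of 7 genes, in NAC + CY against NS for 5 of 6 and in acrolein against NS for 4 of 6. Retnlg and Mmp8, called in the last 2 comparisons, were not well above background on the NS array. Adipocyte markers were called lower in acrolein against NS for 7 of 9 genes, and higher for 6 of 9 in NAC + CY both against NS and against CY.

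Hepatocyte markers, which a heart sample does not make in quantity, were called higher in NAC + CY against NS for 7 of 10 genes, and in CY against NS for 2 of the 3 that could be tested. Their summed signal was 7172 on the CY array, 881.4 on the acrolein array and 12985 on the NAC + CY array, against 1285 on the NS array. On the CY array most of it came from Ahsg (6965 on the CY array, against 1169 on the NS array, log2 ratio 2.57). Alb, the gene of albumin, and Apoa1, Apoc3, Fga, Fgb, Cyp3a11 and Cps1 were well above background on the NAC + CY array only. They were testable only through that array, where they were high, and could not be tested in CY against NS. Serpina1a, the remaining gene testable in CY against NS, was not called there (log2 ratio -1.01).

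**Figure D5:**
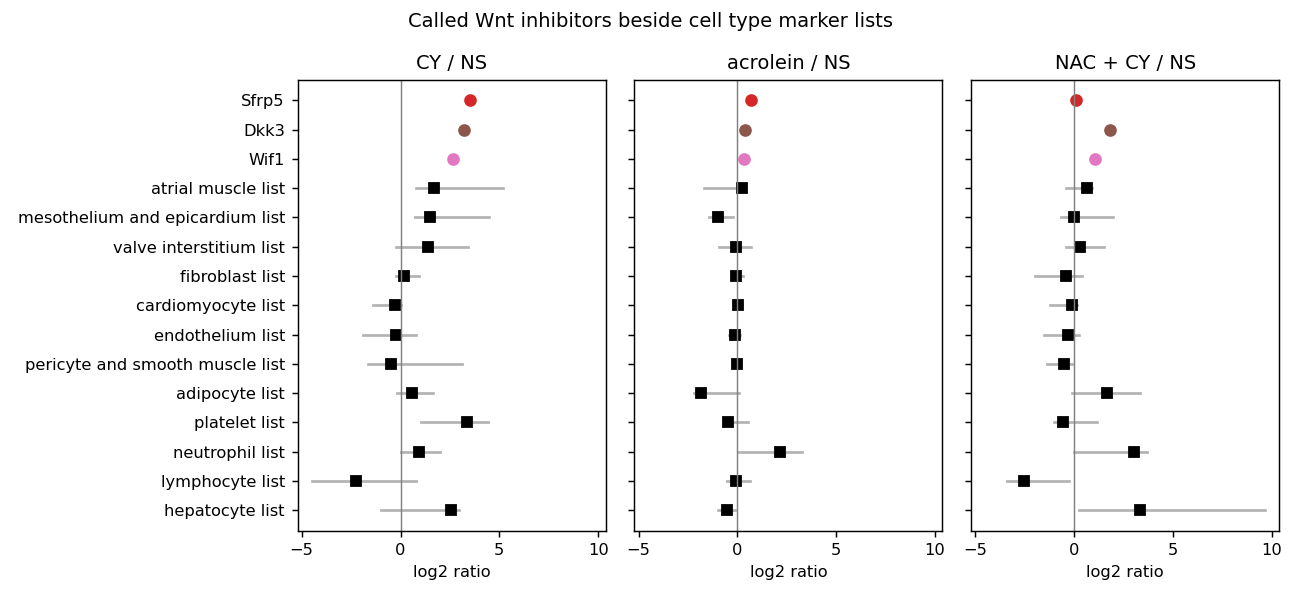
Log2 ratio to NS of Sfrp5, Dkk3 and Wif1 (circles) beside marker lists of cell types (square, median over testable markers, line, lowest to highest) for the CY, acrolein and NAC + CY arrays. In CY the atrial, mesothelial and valve medians lie between 1.38 and 1.70, and in acrolein the mesothelial median is below 0.

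The genes with the array pattern most like that of each called inhibitor were found as the smallest Euclidean distance over the 3 log2 ratios to NS, among 17856 genes well above background on all 4 arrays. For Sfrp5 they were Vdr, the vitamin D receptor, at a distance of 0.669, then the smooth muscle marker Cnn1 (0.826), Vit (1.085), Cacna2d2 (1.146) and 1700042O10Rik (1.151). For Dkk3 they were Npy1r, a neuropeptide Y receptor, at 0.357, then 3300002A11Rik (0.378), Lgals3 (0.400), Cntf (0.425) and Mmp3 (0.470). For Wif1 they were Vit, an extracellular matrix protein, at 0.302, then DXBay18 (0.358), Rab3b (0.412), 1700042O10Rik (0.430) and Stam2 (0.473). With 3 ratios per gene, likeness here rests on 4 arrays only. The neighbours of Sfrp5 were farther away than those of Dkk3 and Wif1, and Vit and 1700042O10Rik stood among the nearest 5 of both Sfrp5 and Wif1.

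The promoter sequences of 6 of the 9 genes (Frzb, Sfrp2, Dkk2, Wif1, Axin2 and Sfrp5) were in the RefSeq table for GRCm38.p6, as windows of 300 bases around the start of the gene. They were searched on both strands for the core letters to which TCF/LEF factors, the nuclear partners of beta-catenin, bind. CTTTGA was found in 1 of 6, against 16.0% of 32851 promoters, and the longer CTTTGAT, which contains it, in 0 of 6, against 3.73%. The match lies in the Frzb promoter window, chr2:80447347-80447646 on the minus strand, starting 95 bases before the gene start, where the letters read TCAAAG on the gene's strand and are shown in capitals.
Frzb promoter: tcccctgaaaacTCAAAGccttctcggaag
A match of these letters is a description of the window and not a measured binding site, and Frzb was not called in any comparison.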

How the data were processed

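The authors scanned single-colour Agilent arrays and extracted spots with Feature Extraction. The submitters' processing notes give version 9.5.1.1, whereas the headers of the arrays give 10.7.1.1. Each deposited intensity is a spot signal after background subtraction, not normalised between arrays. The authors also deposited a value table of linear signal whose columns share a median of 13.9, which was used as an alternative. Here log2 signals were quantile-normalised over all 4 arrays, and repeated spots were averaged per probe (Python 3.11.15, numpy 2.4.6, pandas 2.3.3), after the methods of the study, which also name a detection flag, a Z-score and a ratio. A flag required a signal significantly above background, well above background, unsaturated and without outlier flags on at least 1 of the arrays compared. Each gene was represented by its flagged probe with the highest mean signal. Z-scores were tried on simulated data with the spread of acrolein against NS, with shifts set only in probes brighter than the median. The median SD of the Z windows was 0.193 in acrolein against NS and 0.55 in CY against NS. That trial therefore does not show how reliable the calls in CY against NS are. Background correction by normexp (limma 3.58.1, R 4.3.3, offset 50) was among 14 alternatives. The genes described, the pathway and marker lists and the rules were chosen with earlier results of these data known. Up to 4 called genes with the largest absolute log2 ratio are named from each list. With 1 array per group, the number of arrays limits the precision.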

Additional observations from a re-analysis of the deposited data

How the results depend on the processing

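Over 14 alternatives, the log2 ratios and calls of the 8 testable genes gave 418 values, of which 402 kept their call or lack of one, 6 lost a call, 10 gained one and 0 had a call in the other direction. The sign of the ratio changed in 6 values of 5 results, none of them called, with Sfrp4 in CY against NS at -0.03 with the floor and the others within 0.05 of 0. In CY against NS, Sfrp5 ranged from 3.14 to 3.53, Dkk3 from 3.06 to 3.27 and Wif1 from 1.99 to 2.64, and each was called in all 15 settings. The 1 gene called in acrolein against NS, Sfrp5, was lost, leaving 0, under median scaling, normexp, a Z of 3 and a ratio of 2 (log2 ratio 0.53 to 0.68 over all settings). Sfrp2 gained its call in CY against NS, with log2 ratios from 0.95 to 1.48, under scaling to the 75th percentile or the median, normexp, Z windows of 100 and 400 probes and a Z centred on the window median. Wif1 lost its call in NAC + CY against CY with a window of 100 probes or a Z of 3. Median scaling put the median log2 ratio of CY to NS over all genes at -0.15, against -0.02 with quantile normalisation. Calls in the 6 Wnt lists and the list of BMP, activin and TGF-beta antagonists and binding proteins were 14 in CY against NS, and 5 with a Z of 3. In acrolein against NS they were 6, and 2 with normexp, 3 with a Z of 3 and 0 with a ratio of 2. Calls in NAC + CY against NS were 9, and 1 with a Z of 3, 5 with a ratio of 2 and 4 with the median over probes. Those in NAC + CY against CY were 13, and 7 with a Z of 3 and 8 with a ratio of 2. Over all genes, calls higher and lower in CY against NS were 667 and 556, and 281 and 151 with a Z of 3. In acrolein against NS they were 213 and 254, and 47 and 63 with normexp, 89 and 100 with a Z of 3 and 88 and 129 with a ratio of 2. In NAC + CY against NS they were 531 and 514, and 245 and 158 with a Z of 3. In NAC + CY against CY they were 310 and 566, and 135 and 272 with a Z of 3 and 199 and 342 with a ratio of 2. The stricter thresholds lower these counts by construction, and for the other settings the cause was not tested. No paired analysis was possible because each condition has 1 array, and for the same reason no replicate could be left out. Signals near background limit Sfrp4 and Dkk2.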

Other observations

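Antagonists and binding proteins of BMP, activin and TGF-beta, which also act outside the cell, were read as a group beside the Wnt inhibitors. Of 20 testable genes in CY against NS, 2 were called higher and 2 lower, with a median log2 ratio of 0.31. Chrdl1, a chordin-like BMP antagonist, had a signal of 95.7 on the CY array and 49.0 on the NAC + CY array, against 15.9 on the NS array, where it was not well above background. The CY heart was at least 5.81-fold higher. Chrdl2, its relative, had 47.4 on the CY array, against 8.03 on the NS array, and was at least 2.88-fold higher in the CY heart. Ltbp1, which binds latent TGF-beta, had 307.1 on the CY array and 295.2 on the NAC + CY array, against 853.7 on the NS array, log2 ratios of -1.47 and -1.53. Smoc2, a matrix protein, had 3447 on the CY array and 3356 on the NAC + CY array, against 6552 on the NS array, log2 ratios of -0.93 and -0.97. Ltbp1 and Smoc2 thus had nearly the same signal in the NAC + CY heart as in the CY heart, whereas Chrdl1 was called lower in the NAC + CY heart than in the CY heart (log2 ratio -0.97) and so was Chrdl2 (at least 3.79-fold). None of the 17 testable genes of this group was called in acrolein against NS.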
